A study of Mus musculus with 12 samples.

Results

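The genes described here are 8 genes of glucose uptake, glucose metabolism and insulin signalling: the glucose transporters Slc2a4 and Slc2a1, the glycolytic enzymes Hk2 and Pfkfb3, the pyruvate and glyceroneogenesis enzymes Pcx and Pck1, and the insulin signalling genes Irs2 and Akt2. They were chosen by name for these roles, with earlier results of these data known. All 8 are among the 16163 genes with enough reads to be tested, of 37991 gene identifiers counted. Poly(A) RNA was sequenced from mouse embryonic fibroblasts (MEFs) after 6 days of conversion toward adipocytes, with 3 libraries from each of 4 genotypes: wild type (WT), the Gadd45a knockout (Gadd45a-KO), the Ing1 knockout (Ing1-KO) and the knockout of both genes (DKO). All cells came from E15.5 male embryos on a C57BL/6N background, had been passaged 4 times, and were induced for 48 h with 2 µM rosiglitazone, 10 µg/ml insulin, 0.5 mM IBMX and 1 µM dexamethasone, followed by medium with insulin as the only inducer. The labels write the later insulin dose as 10 mg/ml, a different unit. They name no promoter-driven Cre for either knockout and do not say whether the libraries of a genotype came from separate embryos, so p-values reflect only the spread of these libraries, which may be technical. All 12 libraries were made in the presence of insulin, and glucose uptake itself is not analysed here, so the values are RNA levels and not responses to insulin.

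Glucose enters cells through carriers of the Slc2a (GLUT) family. GLUT1, encoded by Slc2a1, sits in the plasma membrane and supplies basal uptake in fibroblasts and most other cells, whereas GLUT4, encoded by Slc2a4, is made in adipocytes and muscle and is moved from intracellular vesicles to the surface when insulin acts through its receptor, the insulin receptor substrates, PI3-kinase and Akt2. In adipocytes part of the pyruvate formed is carboxylated by Pcx and converted by Pck1 to phosphoenolpyruvate, from which the glycerol backbone of triglyceride can be made, a route called glyceroneogenesis.

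Library depth ranged from 42891627 to 52860419 reads assigned to genes. Ing1 RNA fell 36.9-fold in Ing1-KO and 49.7-fold in DKO against WT (edgeR adjusted p of 2.37e-08 and 1.76e-08). Gadd45a RNA went against its label: it was 9.07-fold higher in the Gadd45a-KO-labelled libraries and 8.86-fold higher in those labelled DKO than in WT (edgeR adjusted p of 2.08e-07 and 1.15e-07), and the exons behind those reads are not known from gene-level counts, so both groups are named here by their labels and directions drawn from them rest on those labels. The 3 Ing1-KO libraries differed widely from each other in adipocyte markers, and the Gadd45a-KO-labelled libraries differed from each other in leukocyte markers, with replicate 1 at a mean of 5.82 log2 CPM against 7.17 and 7.08 in replicates 2 and 3. Of 12 muscle markers, relevant because muscle also makes GLUT4, 9 were under 1 CPM in WT and Ckm was at 0, while Acta1 averaged 22.05 CPM in WT and 30.6 CPM in DKO, Actn3 4.17 and 2.81 CPM, and Tnnt3 1.08 and 1.20 CPM. Their summed level ran from 26.4 to 29.6 CPM in WT and from 24.75 to 44.75 CPM in DKO, and their part in the Slc2a4 values was not tested.

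The GLUT4 gene Slc2a4 (ENSMUSG00000018566, chromosome 11) was, by mean, the scarcest of the 8 per kilobase of exon in every genotype. Except in the Gadd45a-KO-labelled libraries, its values overlapped those of the next scarcest gene. In CPM, the reads of a gene scaled to a common total of gene reads, it measured 4.97, 2.08 and 5.59 in WT replicates 1 to 3, 2.90, 2.25 and 2.04 in the Gadd45a-KO-labelled libraries, 7.40, 2.58 and 1.14 in Ing1-KO, and 0.869, 0.817 and 0.970 in those labelled DKO. All 3 DKO values lay below all 9 others, while the Ing1-KO libraries spanned 6.52-fold and bracketed the whole WT range. The DKO difference from WT was -2.25 ± 0.68 (log2 fold change ± SE), or 4.76-fold lower, and narrowly missed the threshold in edgeR's quasi-likelihood test with Benjamini-Hochberg adjustment over all genes (adjusted p = 0.0547). DESeq2 called it (adjusted p = 0.000597), as did a fit on the WT and DKO libraries alone (0.0144) and edgeR's older quasi-likelihood fit (0.0444), which was added after the data had been seen, while the log2 difference lay between -2.26 and -2.23 in all of these. Between 37 and 47 reads per DKO library and between 96 and 281 per WT library lie behind these values. With 1 library left out, edgeR called the DKO difference of Slc2a4 from WT in 3 of 12 fits (adjusted p from 0.00962 to 0.154). Its log2 value then ran from -2.57 to -1.99. In such bulk samples fewer cells of a type and less RNA per cell cannot be told apart.

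The GLUT1 gene Slc2a1 (ENSMUSG00000028645, chromosome 4) was the most abundant of the 8 per kilobase in every genotype. It measured 288, 319 and 303 CPM in WT, 259, 309 and 301.5 CPM in the Gadd45a-KO-labelled libraries, 251, 254 and 272 CPM in Ing1-KO, and 321.5, 362 and 275 CPM in DKO. DKO and WT overlapped, with a log2 difference of 0.07 and a 95% interval from -0.14 to 0.28 (edgeR adjusted p = 0.67), which leaves out any change as large as that of Slc2a4. The lowest values were the 3 from Ing1-KO, all under the lowest WT value, but the difference of -0.23 ± 0.095 did not pass the test (edgeR adjusted p = 0.198). DKO lay above Ing1-KO in every library by 0.30 ± 0.095 on the log2 scale (edgeR adjusted p = 0.0607, DESeq2 adjusted p = 0.0183). Of its exon sequence, 105 bases are shared with Gm12868, a gene on the opposite strand, and the strand setting of the counting is not given in the sources used here.

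**Figure D1:**
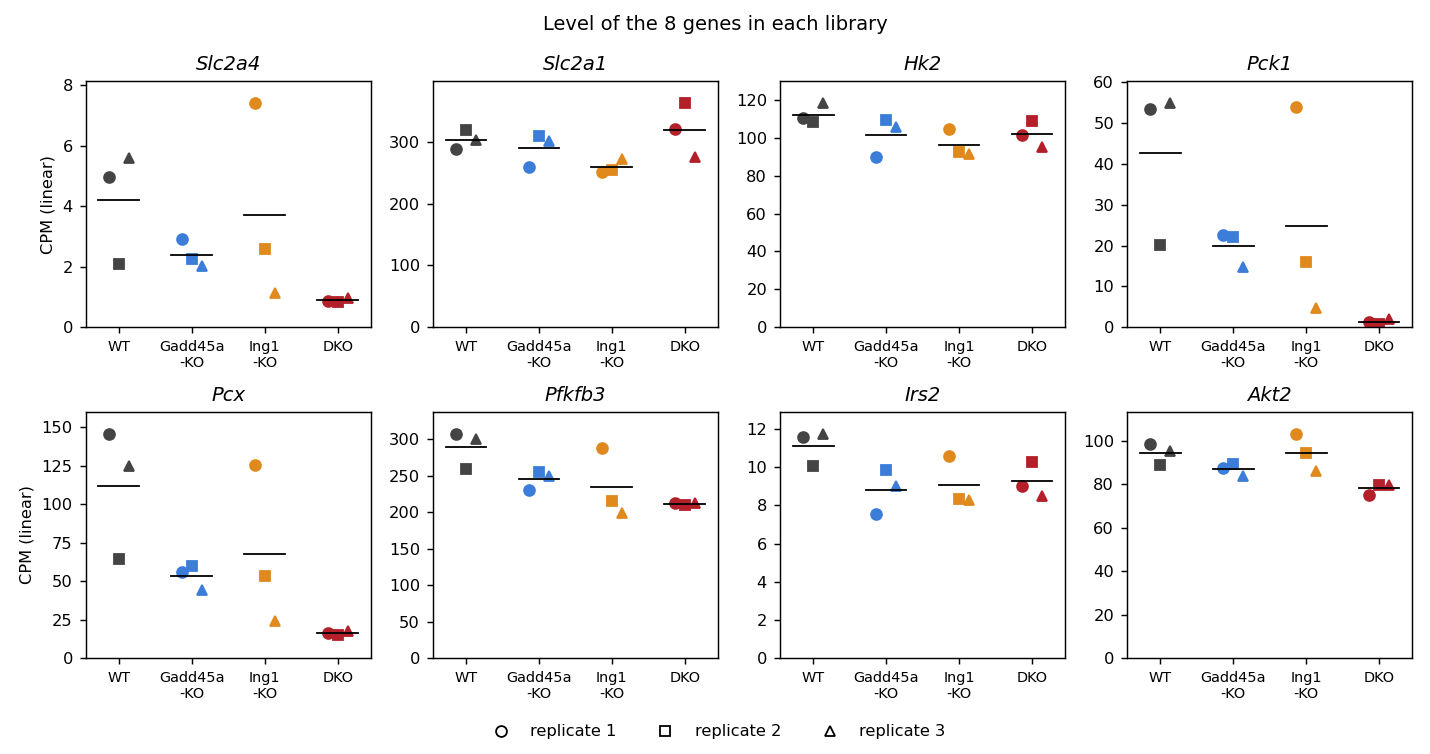
CPM of each of the 8 genes (y axis, linear and from 0, with its own range in each panel) in the 3 libraries of each genotype (x axis), where symbols give the replicate number and bars the genotype mean. Slc2a4, Pck1 and Pcx are lowest in the 3 DKO libraries and spread widely in WT and Ing1-KO, whereas Slc2a1, Hk2 and Irs2 overlap between WT and DKO.

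Hk2 (ENSMUSG00000000628, chromosome 6), the insulin-regulated hexokinase that traps glucose as glucose 6-phosphate, measured 110, 108 and 118 CPM in WT and 101, 109 and 95.1 CPM in DKO. The libraries labelled Gadd45a-KO gave 89.7, 109 and 106 CPM, and Ing1-KO gave 105, 92.6 and 91.6 CPM. WT held the highest value and every genotype except Ing1-KO overlapped WT. The DKO difference from WT was -0.14 with a 95% interval from -0.32 to 0.04 (edgeR adjusted p = 0.286), and that of Ing1-KO was -0.22 ± 0.081 (edgeR adjusted p = 0.149).

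Pfkfb3 (ENSMUSG00000026773, chromosome 2) makes fructose 2,6-bisphosphate, the activator of phosphofructokinase, and fell modestly in DKO. It measured 307, 259.5 and 300 CPM in WT and 212.0, 209.9 and 212 CPM in DKO, a 1.37-fold decrease (log2 -0.45 ± 0.12, edgeR adjusted p = 0.0337). The DKO libraries lay below all WT libraries and within 1.01-fold of one another. The libraries labelled Gadd45a-KO lay between them at 230, 255.5 and 249 CPM, and Ing1-KO ran from 287.5 CPM in replicate 1 to 216 and 198 CPM in replicates 2 and 3, the last below DKO. Without Ing1-KO replicate 1, the Ing1-KO difference from WT was -0.48 (edgeR adjusted p = 0.00834) against -0.30 with it (0.172). The DKO call was lost when WT replicate 1 (adjusted p = 0.127), WT replicate 3 (0.105) or DKO replicate 1, 2 or 3 (0.104, 0.0902 and 0.0718) was left out, and in the fit without a filter on low counts (0.0675).

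Pck1 (ENSMUSG00000027513, chromosome 2), the cytosolic phosphoenolpyruvate carboxykinase and the step that commits pyruvate carbon to glyceroneogenesis, showed the largest difference of the 8. It measured 53.4, 20.2 and 54.9 CPM in WT, 22.6, 22.1 and 14.7 CPM in the Gadd45a-KO-labelled libraries, 54.0, 16.1 and 4.597 CPM in Ing1-KO, and 1.15, 0.817 and 2.00 CPM in DKO. DKO lay below every other library, and Ing1-KO spread over 11.7-fold, from a value within the WT range in replicate 1 to the lowest non-DKO value in replicate 3. Pck1 fell 32.0-fold in DKO against WT (log2 -5.00 ± 0.91, edgeR adjusted p = 0.0111) and 18.6-fold against Ing1-KO (log2 -4.22 ± 0.90, edgeR adjusted p = 0.0255). Against the Gadd45a-KO-labelled libraries the DKO difference was -3.89 ± 0.91 (edgeR adjusted p = 0.0637, DESeq2 adjusted p = 8.86e-05). DKO values rest on 49, 37 and 97 reads. The call against WT was lost without DKO replicate 1 (adjusted p = 0.0564, log2 -4.91), and the call against Ing1-KO without Ing1-KO replicate 1 (0.0656, log2 -2.94), Ing1-KO replicate 2 (0.0748), DKO replicate 1 (0.094) or DKO replicate 2 (0.0822).

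The 250 bases before the annotated start of Pck1 are shown because this gene differed most, and those of Irs2 because both are textbook targets that insulin represses in liver and Irs2 differed little here. They are RefSeq sequences on GRCm38.p6, at chr2:173152823-173153072 on the plus strand for Pck1 and chr8:11008930-11009179 on the minus strand for Irs2, written 5′ to 3′ in the direction of transcription, with matches to the motifs named after them in capitals.
Pck1: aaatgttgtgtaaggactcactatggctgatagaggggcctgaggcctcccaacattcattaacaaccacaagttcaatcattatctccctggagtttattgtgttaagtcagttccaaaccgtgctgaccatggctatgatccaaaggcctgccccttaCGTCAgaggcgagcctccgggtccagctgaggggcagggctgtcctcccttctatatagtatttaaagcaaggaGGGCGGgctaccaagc
Irs2: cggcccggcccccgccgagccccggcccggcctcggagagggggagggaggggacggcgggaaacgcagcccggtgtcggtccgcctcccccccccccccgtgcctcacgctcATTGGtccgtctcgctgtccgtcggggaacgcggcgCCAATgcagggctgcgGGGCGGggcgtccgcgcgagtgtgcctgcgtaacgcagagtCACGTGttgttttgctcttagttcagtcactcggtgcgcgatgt

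Both strands were searched for 7 motifs: the cAMP response element core TGACG, the E-box CACGTG, the TATA box TATAAA, the nuclear receptor half-site AGGTCA, the forkhead site TGTTTAC, the CCAAT box CCAAT and the GC box GGGCGG. The Pck1 stretch held TGACG on the opposite strand, first base 90 bases before the start, and GGGCGG 16 bases before it. The Irs2 stretch held CCAAT 137 bases before the start on the opposite strand and 101 before it on the gene's own strand, GGGCGG at 85 and CACGTG at 44, and none of these matches overlapped. Among 32851 promoters of the same length, 17.8% held TGACG, 6.02% CACGTG, 12.4% TATAAA, 14.02% AGGTCA, 3.17% TGTTTAC, 33.85% CCAAT and 32.7% GGGCGG. GC content was 50.8% for Pck1 and 72.8% for Irs2, against a median of 52.4% over all promoters. The table used held 7 of the 8 genes, without Slc2a4.

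Pcx (ENSMUSG00000024892, chromosome 19), the mitochondrial pyruvate carboxylase that supplies oxaloacetate for glyceroneogenesis and for citrate export in lipid synthesis, fell together with Pck1 in DKO. It measured 145.5, 64.5 and 125 CPM in WT, 55.7, 60.1 and 44.3 CPM in the Gadd45a-KO-labelled libraries, 126, 53.4 and 23.8 CPM in Ing1-KO, and 16.0, 14.8 and 17.7 CPM in DKO. The libraries labelled Gadd45a-KO all lay below WT and all above DKO, and Ing1-KO replicate 1 again lay within the WT range while replicate 3 was the lowest value outside DKO. Pcx fell 6.9-fold in DKO against WT (log2 -2.79 ± 0.53, edgeR adjusted p = 0.0129) and 4.18-fold against Ing1-KO (log2 -2.06 ± 0.52, edgeR adjusted p = 0.0357). The value in the Gadd45a-KO-labelled libraries was 0.478 of WT, with a log2 difference of -1.07 and a 95% interval from -2.16 to 0.03 (edgeR adjusted p = 0.88). Against WT the DKO call was lost without WT replicate 1 (adjusted p = 0.0578) or DKO replicate 1 (0.0616). Against Ing1-KO it was lost without any one of WT replicate 3 (0.0538), Gadd45a-KO replicate 3 (0.0505), Ing1-KO replicate 1 (0.102, log2 -1.25) or 2 (0.0855), or DKO replicate 1, 2 or 3 (0.112, 0.102 and 0.0719).

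Irs2 (ENSMUSG00000038894, chromosome 8), an adaptor that couples the insulin receptor to PI3-kinase, passed no test. It measured 11.6, 10.1 and 11.7 CPM in WT, 7.53, 9.83 and 9.04 CPM in the Gadd45a-KO-labelled libraries, 10.6, 8.31 and 8.27 CPM in Ing1-KO, and 9.04, 10.3 and 8.52 CPM in DKO. The 3 libraries labelled Gadd45a-KO lay below all 3 WT libraries, and the other 2 genotypes overlapped WT. The log2 differences from WT were similar in size, at -0.34 (95% interval from -0.62 to -0.06) in the Gadd45a-KO-labelled libraries, -0.30 (-0.57 to -0.02) in Ing1-KO and -0.26 (-0.54 to 0.02) in DKO. The edgeR adjusted p-values were 0.88, 0.203 and 0.198, and the DKO mean was within 0.08 on the log2 scale of either single knockout.

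Akt2 (ENSMUSG00000004056, chromosome 7), the Akt kinase through which insulin moves GLUT4 in adipocytes, fell slightly but evenly in DKO. It measured 98.5, 88.9 and 95.4 CPM in WT, 87.2, 89.4 and 83.5 CPM in the Gadd45a-KO-labelled libraries, 103, 94.1 and 85.9 CPM in Ing1-KO, and 75.0, 79.7 and 79.5 CPM in DKO. The 3 DKO values were the lowest of the 12. The decrease was 1.21-fold against WT (log2 -0.27 ± 0.063, edgeR adjusted p = 0.0202) and 1.21-fold against Ing1-KO (log2 -0.27 ± 0.063, edgeR adjusted p = 0.0269). Ing1-KO and WT had the same mean of 94.3 CPM. Against WT the call was lost without WT replicate 1 (adjusted p = 0.0931), WT replicate 3 (0.0695), DKO replicate 1 (0.0886) or DKO replicate 2 (0.051), and against Ing1-KO without Ing1-KO replicate 1 (0.0825) or 2 (0.0869) or DKO replicate 1 (0.102) or 2 (0.0671).

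**Figure D2:**
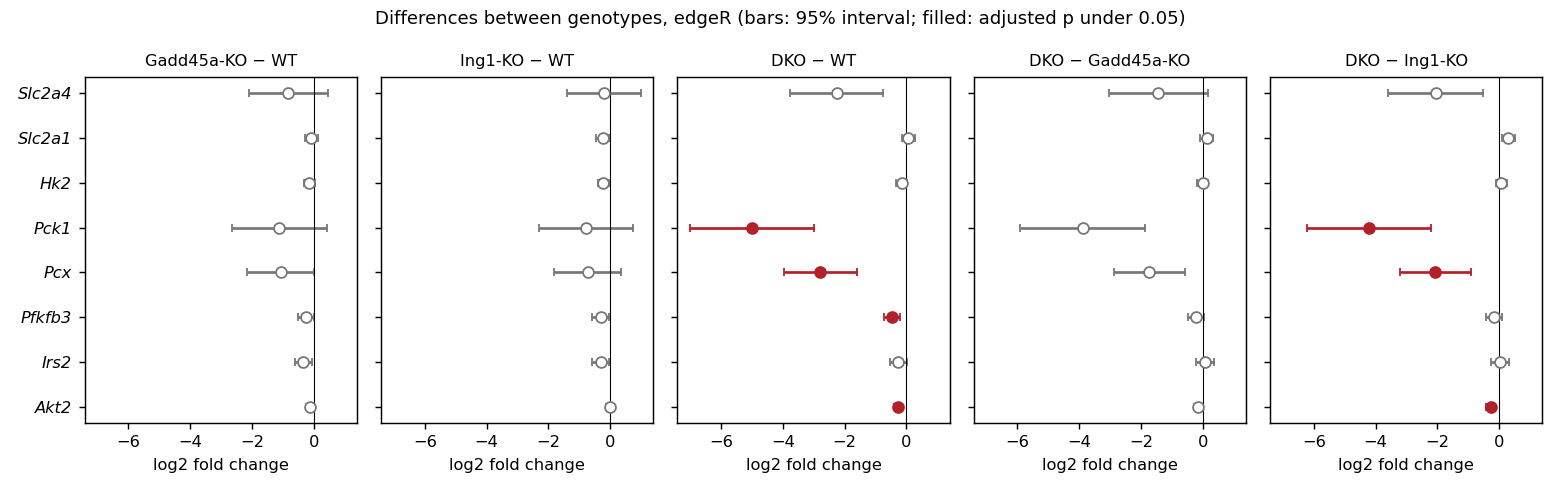
Log2 fold change of each of the 8 genes (x axis) in 5 comparisons between genotypes, with 95% intervals as bars and filled points where the edgeR adjusted p was under 0.05. Pck1, Pcx, Pfkfb3 and Akt2 are filled in DKO against WT and Pck1, Pcx and Akt2 in DKO against Ing1-KO.

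Read across genotypes, 4 of the 8 genes fell in DKO against WT (Pck1, Pcx, Pfkfb3 and Akt2) and none rose, beside 7.09% of all tested genes called lower. The 8 genes had a median log2 fold change of -0.36 there, against -0.003 for all genes, and 7 of 8 values were below 0. The Gadd45a-KO-labelled libraries lay below WT in every library for 3 of 8 (7.61% of all genes) and Ing1-KO for 2 of 8 (12.5%). In 5 of 8, DKO lay below WT in every library, where 19.7% of all genes did so. The 8 genes were chosen with earlier results of these data known, so these shares are descriptions and do not test for an excess. The number of calls depended on single libraries: it was 0 without DKO replicate 1, 1 without WT replicate 1, 2 without WT replicate 3 and 2 without DKO replicate 2. The calls over all genes dropped in the same fits, from 1146 lower to 173, 175, 363 and 408.

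Against Ing1-KO, DKO gave 3 decreases among the 8 genes (Akt2, Pck1 and Pcx), beside 5.76% of all genes called lower, and no increase. Over all genes the calls there were 956 higher and 931 lower, and 731 and 1163 with upper-quartile factors. In 4 of 8 genes DKO lay below Ing1-KO in every library (16.8% of all genes), and in 1, Slc2a1, above it (17.4%). None of the 3 calls remained without Ing1-KO replicate 1 or 2 or DKO replicate 1 or 2, or in a fit of the 6 Ing1-KO and DKO libraries alone, while DESeq2 called 5. Over all genes, these 4 omissions left 152, 6, 1 and 65 higher calls and 146, 10, 1 and 73 lower calls in that order, so calls were lost across all genes.

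Against the Gadd45a-KO-labelled libraries, edgeR called 0 of 8 genes in DKO, beside 1.26% of all genes called in either direction. Unadjusted p was under 0.05 for 3 of 8 (20.0% of all genes), DESeq2 called 2 (Pck1 and Pcx), and in 5 of 8 DKO lay lower in every library, where 13.6% of all genes did so. The fit of those 6 libraries alone called 3, Pck1, Pcx and Slc2a4, and the same 2 as DESeq2 were called when either Ing1-KO replicate 1 or replicate 3 was left out.

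Neither single knockout gave a call among the 8 genes against WT. edgeR and DESeq2 both called 0 of 8 in the Gadd45a-KO-labelled libraries, where edgeR called 0.0124% of all genes, and unadjusted p was under 0.05 for 1, Irs2 (5.48% of all genes). Both tools also called 0 of 8 in Ing1-KO, where edgeR called 4.32% of all genes, and unadjusted p was under 0.05 for 4, Slc2a1, Hk2, Pfkfb3 and Irs2 (20.9% of all genes). All 8 values were below 0 in both comparisons, with medians of -0.29 and -0.26. In Ing1-KO the Akt2 value was -0.0002, in effect no difference. Its sign and that of Slc2a4 (-0.20) there changed when certain single libraries were left out, as did that of Slc2a1 (-0.07) in the Gadd45a-KO-labelled libraries. These comparisons and that of DKO share the same 3 WT libraries, so their signs are not independent.

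For Pck1 the WT differences were -1.11, -0.78 and -5.00 in the Gadd45a-KO-labelled libraries, Ing1-KO and DKO, for Pcx -1.07, -0.72 and -2.79, and for Slc2a4 -0.81, -0.20 and -2.25. The departure of DKO from the sum of both single differences on the log2 scale was -3.10 ± 1.14 for Pck1 (unadjusted p = 0.0216, edgeR adjusted p = 0.301), -0.997 ± 0.70 for Pcx (adjusted p = 0.55) and -1.24 ± 0.91 for Slc2a4 (adjusted p = 0.568). For Slc2a1 it was 0.37 ± 0.13 (unadjusted p = 0.0193, edgeR adjusted p = 0.3). By this interaction test edgeR and DESeq2 called 0 of 8 genes, edgeR 0.0% of all genes (48 higher and 143 lower without Ing1-KO replicate 3, and 18 and 12 without DKO replicate 3), and 13.6% of all genes had an unadjusted p under 0.05, so a DKO difference beyond the sum was not established for any of the 8.

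By their mean, adipocyte markers were lowest in the DKO libraries, as were Slc2a4, Pck1 and Pcx. Single markers did not all share this order: the lowest values of Cebpa and Cfd were in Ing1-KO, at 18.3 and 0.0577 CPM. The DKO minima of these markers were 21.6 and 0.0619 CPM. The mean of 10 adipocyte markers was 6.19, 5.06 and 6.10 log2 CPM in WT replicates 1 to 3, 4.80, 4.86 and 4.48 in the Gadd45a-KO-labelled libraries, 5.97, 4.43 and 2.59 in Ing1-KO, and 1.96, 1.96 and 2.21 in DKO, and 9 of the 10 markers fell in DKO against WT. WT replicate 2, the WT library with the lowest marker mean, also held the lowest WT values of 7 of the 8 genes, all except Slc2a1, and Ing1-KO replicates 1 and 3 held the highest and lowest Ing1-KO values of both the markers and the same 7. The order did not hold throughout: the marker mean was highest in WT replicate 1 and, among the Gadd45a-KO-labelled libraries, in replicate 2, whereas Slc2a4 and Pck1 were highest in WT replicate 3 and Gadd45a-KO replicate 1. For Pck1 these were near ties, at 5.78 against 5.74 log2 CPM in WT replicates 3 and 1. In Gadd45a-KO replicates 1 and 2 Pck1 was at 4.50 and 4.47. Slc2a4 was at 2.495 and 2.325 in the same WT pair and at 1.56 and 1.20 in the same Gadd45a-KO pair. Over the 12 libraries the markers spanned 4.23 log2 units, Pck1 6.00, Pcx 3.29 and Slc2a4 3.11, against 0.63 for Pfkfb3, 0.64 for Irs2, 0.53 for Slc2a1, 0.45 for Akt2 and 0.40 for Hk2. The part of adipocyte content in the differences was not tested.

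Set against the marker mean of the same library, the 3 genes did not move alike. Pck1 was 0.45, 0.72 and 0.32 log2 units under the marker mean in WT and 1.71, 2.18 and 1.18 under it in DKO. Slc2a4 was 3.87, 3.98 and 3.60 units under it in WT and 2.099, 2.18 and 2.19 under it in DKO. Pcx was 0.99, 0.95 and 0.87 units above it in WT and 2.04, 1.94 and 1.94 above it in DKO. Relative to the marker mean, Pck1 was thus lower and Slc2a4 and Pcx were higher in all 3 DKO than in all 3 WT libraries. The gaps of Slc2a4 and Pcx were not particular to DKO. In Ing1-KO replicate 3, at a marker mean of 2.59, Pcx was 1.98 units above it, within the DKO range. Slc2a4 was 2.36 units under it there, between the DKO and WT ranges, and Pck1 0.38 under it, within the WT range. The 10 markers fell unequally, so the gap depends on which are averaged. The DKO mean over the WT mean was 0.0309 for Pck1, 0.0311 for Adipoq and 0.0315 for Plin1. It was 0.00534 for Retn, 0.024 for Cidec, 0.0599 for Cfd and 0.0715 for Fabp4. For Lipe, Pparg, Lpl and Cebpa it was 0.0971, 0.12, 0.202 and 0.486. The gaps from the marker mean are descriptions on a log2 scale in which a small constant is added to low counts, which raises the lowest DKO values most.

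**Figure D3:**
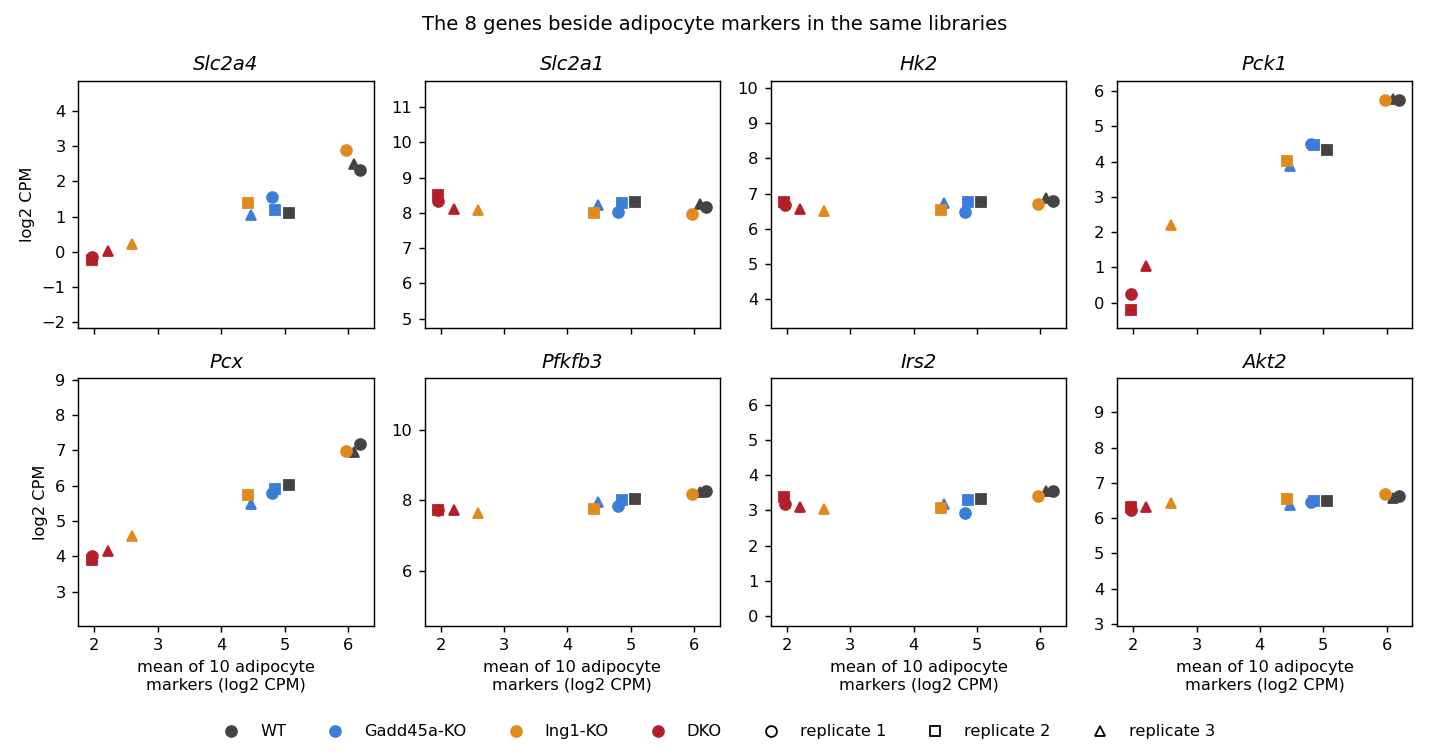
Log2 CPM of each of the 8 genes (y axis, the same span in every panel) against the mean log2 CPM of 10 adipocyte markers in the same library (x axis), with color for genotype and symbol for replicate. Pck1, Pcx and Slc2a4 climb from the DKO libraries at a marker mean of about 2 to the WT libraries at 5.06 to 6.19, and the other 5 genes stay within 0.64 log2 units.

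Leukocyte markers moved the other way in DKO: the mean of 10 such markers was 7.60 to 7.62 log2 CPM in DKO and 6.53 to 6.71 in WT, and 5 of the 10 rose. Fibroblast markers gave 0 calls of 7 with edgeR in DKO against WT, with a mean of 10.62 to 10.93 log2 CPM in DKO and 10.95 to 11.04 in WT. The part of either in the values of the 8 genes was not tested.

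Levels per kilobase of exon were also compared between paralogs of each step, a comparison added after the values had been seen. Slc2a1 made up 79.0% ± 1.7 (SD, n = 3) of the RNA of 10 glucose transporter genes in WT and 81.8% ± 1.9 in DKO, and Slc2a4 1.11% ± 0.51 and 0.233% ± 0.048. The ratio of Slc2a1 to Slc2a4 was 57.6, 152 and 53.8 in the WT libraries and 367, 440 and 281 in DKO, without overlap, and ran from 33.6 to 238 in Ing1-KO.

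Pck2, the mitochondrial phosphoenolpyruvate carboxykinase, did not pass the test in DKO, with a log2 difference from WT of -0.12 (95% interval from -0.31 to 0.06, edgeR adjusted p = 0.379). Pck1 made up 37.8% ± 13.5 (SD, n = 3) of both carboxykinases in WT, 22.5% ± 3.7 in the Gadd45a-KO-labelled libraries, 24.9% ± 21.6 in Ing1-KO and 2.12% ± 0.94 in DKO. The ratio of Pck2 to Pck1 was 49.1, 78.7 and 31.1 in the DKO libraries, against 1.22, 3.49 and 1.17 in WT.

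Among the insulin receptor substrates Irs1 was the most abundant, at 70.5% ± 1.6 (SD, n = 3) of the 3 in WT, and Irs2 made up 21.3% ± 0.60. The ratio of Irs1 to Irs2 was 3.4, 3.32 and 3.2 in WT, 5.93, 3.61 and 4.14 in the Gadd45a-KO-labelled libraries, 4.78, 6.23 and 5.04 in Ing1-KO, and 4.09, 3.11 and 4.22 in DKO. Both single knockouts lay above WT in every library and DKO overlapped WT. Irs1 itself was lower in DKO than in Ing1-KO (log2 -0.46 ± 0.11, edgeR adjusted p = 0.0281). Irs3, a substrate found in rodent adipocytes, fell 7.44-fold in DKO against WT (log2 -2.90 ± 0.68, edgeR adjusted p = 0.023) from 1.59 ± 0.50 CPM to 0.214 ± 0.075 CPM (SD, n = 3). Its DKO values, from 0.1325 to 0.2817 CPM, were near the floor and below every DKO value of Slc2a4. Fits that leave out 1 library are not given for the Irs1 and Irs3 calls.

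Akt1 was the main Akt kinase, at 74.2% ± 0.24 (SD, n = 3) of the 3 in WT, and Akt2 made up 14.1% ± 0.58 in WT and 11.4% ± 0.39 in DKO. The ratio of Akt1 to Akt2 was 5.11, 5.56 and 5.20 in WT and 6.78, 6.80 and 6.42 in DKO, while Akt1 differed by 0.06 (95% interval from -0.04 to 0.16, edgeR adjusted p = 0.401). The ratio of Hk1 to Hk2 lay between 1.30 and 1.59 in all 12 libraries. Hk3, a hexokinase of myeloid cells, was 10.4% ± 1.0 (SD, n = 3) of the 4 hexokinases in WT and 18.4% ± 0.70 in DKO, where the leukocyte markers were also highest, and its own difference did not pass the test (log2 0.83 ± 0.35, edgeR adjusted p = 0.143).

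**Figure D4:**
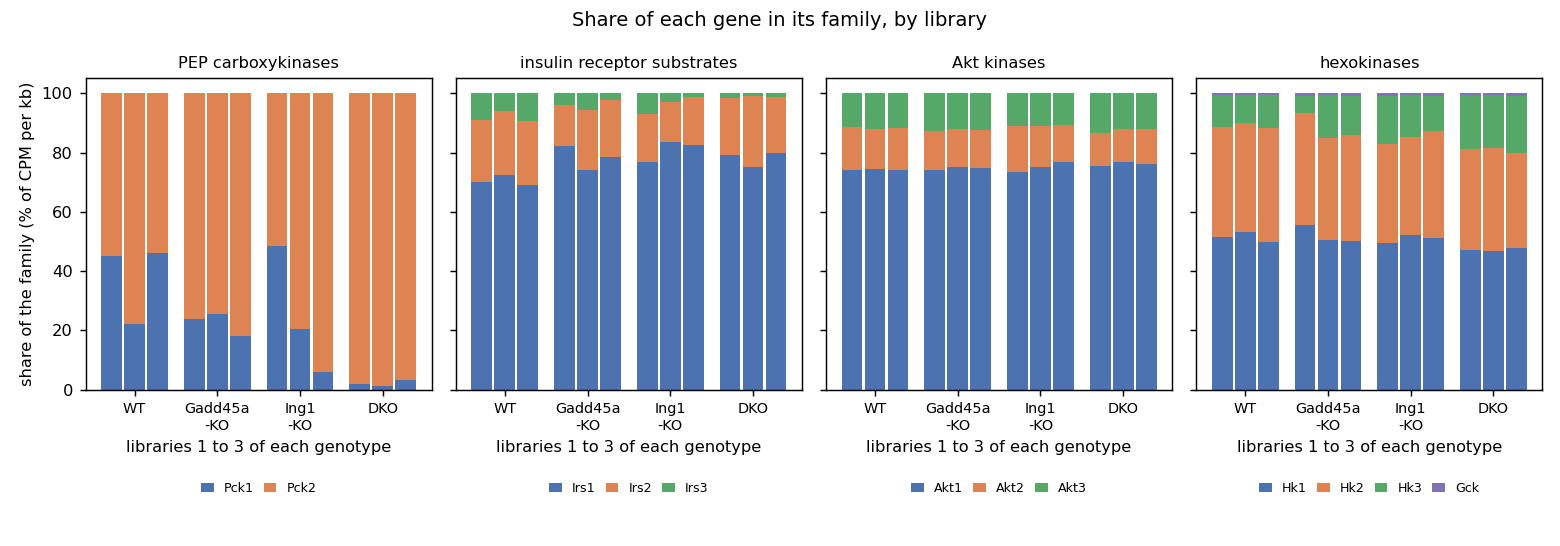
Share of each gene in its family (y axis, percent of CPM per kilobase, from 0) in the 3 libraries of each genotype (x axis), for 4 families. Pck1 falls from 22.3% to 46.1% of both carboxykinases in WT to 1.26% to 3.11% in DKO, and Akt2 from 13.4% to 14.5% to 11.1% to 11.9%.

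Within a genotype the 8 genes kept much the same order of level per kilobase. In WT they ran from Slc2a1 (86.6 ± 4.4 CPM per kilobase, SD, n = 3) through Pfkfb3 (38.2 ± 3.4), Pcx (23.5 ± 8.9), Hk2 (18.8 ± 0.88), Akt2 (13.2 ± 0.69), Pck1 (12.5 ± 5.7) and Irs2 (1.76 ± 0.15) to Slc2a4 (1.21 ± 0.54). The neighbouring pairs Pcx and Hk2, Akt2 and Pck1, and Irs2 and Slc2a4 overlapped between libraries and the other neighbours did not. In DKO, Pcx (3.404 ± 0.30) stood below Akt2 (10.9 ± 0.36) and Pck1 (0.386 ± 0.18) below Irs2 (1.47 ± 0.14), with no overlap in either case.

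The genes with the pattern nearest to Slc2a4 over the 12 libraries, by root mean square difference of mean-centred log2 CPM among 10457 genes, were Pnpla2 (0.25), which encodes the triglyceride lipase ATGL, Arxes1 (0.25), and Acacb (0.26), an acetyl-CoA carboxylase. Their log2 differences in DKO against WT, which the choice by likeness to Slc2a4 largely fixes, were -2.52, -2.39 and -2.34. Nearest to Pck1 were Mrap (0.22), an accessory protein of the ACTH receptor, Adipoq (0.22), the hormone adiponectin, and Plin1 (0.25), the lipid droplet coat protein. Adipoq and Plin1 are among the 10 adipocyte markers.

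Beyond the 8 genes, 6 lists of the same pathways held 119 genes, of which 112 could be tested. These lists were also chosen with earlier results of these data known, so their shares are descriptions and do not test for an excess. In DKO against WT 16 of the 112 fell (14.3%, beside 7.09% of all genes) and 8 rose (7.1%, beside 5.94%). These counts depended on single libraries: the decreases numbered 1 without DKO replicate 1, 2 without WT replicate 1, 3 without WT replicate 3, 6 without DKO replicate 2, 9 without DKO replicate 3, and 25 and 26 without Ing1-KO replicate 1 or 3. The increases numbered 1 without any one of WT replicate 1, WT replicate 3, DKO replicate 1 or DKO replicate 2, and 4 without WT replicate 2. Over all genes the decreases numbered 173 without DKO replicate 1, 175 without WT replicate 1, 363 without WT replicate 3, 408 without DKO replicate 2 and 866 without DKO replicate 3, against 1146 with all libraries, so calls were lost across all genes.

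In the list of pyruvate, gluconeogenesis and glyceroneogenesis genes 8 of 18 fell, 0 rose, and the median difference was -0.32 on the log2 scale. Gpd1, which makes glycerol 3-phosphate from a glycolytic intermediate, measured 415, 156 and 375 CPM in WT and 5.71, 5.04 and 10.3 CPM in DKO, a 44.8-fold decrease (log2 -5.48 ± 0.95, edgeR adjusted p = 0.00983) that was lost in edgeR without DKO replicate 1 (0.0534). Slc25a1, the mitochondrial citrate carrier, fell 1.41-fold, and Pdk2, a kinase that inhibits pyruvate dehydrogenase, 1.68-fold (edgeR adjusted p of 0.0185 and 0.0195). The step made by Gpd1 and the step made by Pck1 both supply the glycerol backbone of triglyceride, and both were among the largest decreases.

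Among the glycolysis genes 2 of 21 fell, Pfkfb1 by 1.21 and Pfkl by 0.24 on the log2 scale (edgeR adjusted p of 0.0348 and 0.0352), and the median was -0.10. Among the other glucose transporters 1 of 8 fell, Slc2a6, a lysosomal transporter, from 7.70 ± 0.87 CPM in WT to 4.56 ± 0.42 CPM in DKO (SD, n = 3, edgeR adjusted p = 0.0126), and the list's median was -0.21. In the glycogen list 1 of 11 changed, the brain-type phosphorylase Pygb, which rose by 0.17 on the log2 scale (edgeR adjusted p = 0.028).

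Genes from the insulin receptor to Akt gave 4 increases and 4 decreases of 37, with a median of -0.07. The phosphatase Ptpn1, which dephosphorylates the insulin receptor, rose by 0.24 on the log2 scale, and Grb10, an adaptor that inhibits the receptor, by 0.24, whereas Mtor fell by 0.21 (edgeR adjusted p of 0.0157, 0.0205 and 0.0106). In the GLUT4 vesicle list 3 of 17 rose and 1 fell. Stxbp3 (Munc18c), which binds the membrane receptor of the vesicles, rose by 0.27 and Snap23, a member of that fusion complex, by 0.15 (edgeR adjusted p of 0.00633 and 0.0172). Trarg1, a regulator of GLUT4 traffic found in adipocytes, fell 20.5-fold, from 38.2, 19.1 and 34.1 CPM in WT to 1.20, 0.994 and 2.21 CPM in DKO (log2 -4.36 ± 0.76, edgeR adjusted p = 0.0104), and was not called without DKO replicate 1 (0.0534).

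**Figure D5:**
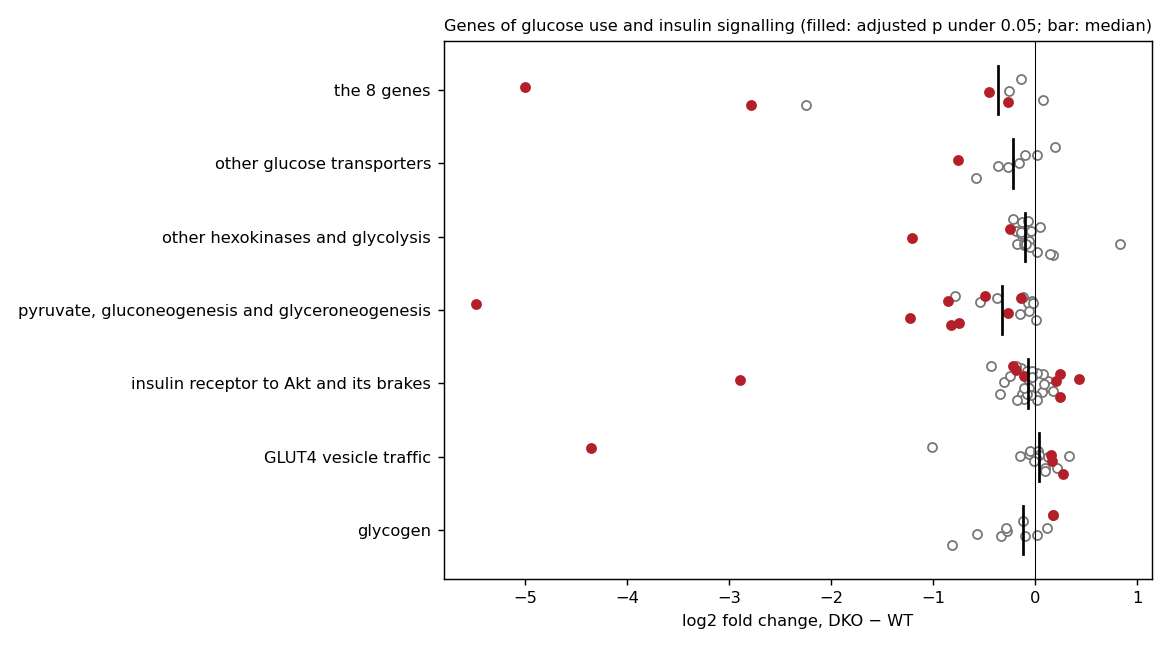
Log2 fold change in DKO against WT (x axis) of the 8 genes and of the 112 tested genes of 6 related lists (rows), with 1 point per gene, filled where the edgeR adjusted p was under 0.05, and a vertical bar at each median. Most points lie near 0, and Pck1, Gpd1, Trarg1, Irs3, Pcx and Slc2a4, the last not filled, form the left tail.

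In Ing1-KO against WT the same lists gave 5 increases and 3 decreases of 112 (4.5% and 2.7%, beside 2.4% and 1.92% of all genes). Slc2a3, the GLUT3 transporter, fell by 0.44 on the log2 scale and the glycogen targeting subunit Ppp1r3b by 0.34 (edgeR adjusted p of 0.0281 and 0.0449). Grb10 rose by 0.27, Pygb by 0.27, and the vesicle fusion genes Stx4a and Vamp2 by 0.17 and 0.19 (edgeR adjusted p of 0.0265, 0.00919, 0.0321 and 0.0429). Without Ing1-KO replicate 3 there were 8 increases. The increases numbered 1 without WT replicate 1, 2 or 3 or Ing1-KO replicate 2, 2 without DKO replicate 1, and 3 without Gadd45a-KO replicate 3 or Ing1-KO replicate 1. The decreases numbered 0 without WT replicate 1, 2 or 3 or Ing1-KO replicate 2, 1 without Gadd45a-KO replicate 3 or DKO replicate 1, 7 without Gadd45a-KO replicate 1, and 15 without Ing1-KO replicate 1. Over all genes, leaving out 1 library gave 63 to 698 increases and 38 to 539 decreases, the lowest of both without Ing1-KO replicate 2.

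In DKO against Ing1-KO 12 of the 112 fell and 5 rose (10.7% and 4.5%, beside 5.76% and 5.91% of all genes). Gpd1 fell by 4.29 on the log2 scale, Trarg1 by 3.24, Pdk4, another kinase of pyruvate dehydrogenase, by 1.14, and the glucose transporters Slc2a12 by 0.96 and Slc2a13, a proton-coupled inositol carrier, by 0.40 (edgeR adjusted p of 0.0246, 0.0306, 0.0364, 0.0178 and 0.0304). Shc1, Phlda3 and Vamp2 fell by 0.16, 0.39 and 0.20 (edgeR adjusted p of 0.022, 0.0221 and 0.0259). The decreases numbered 0 without Ing1-KO replicate 2 or DKO replicate 1, 1 without Ing1-KO replicate 1 or DKO replicate 2, and 23 without Ing1-KO replicate 3, where 1805 of all genes were called lower. The increases numbered 10 when Gadd45a-KO replicate 1 was left out, 2 when WT replicate 3 was, 1 when Ing1-KO replicate 1 was, and 0 when Ing1-KO replicate 2, DKO replicate 1 or DKO replicate 2 was. Against the Gadd45a-KO-labelled libraries and in the comparison of those libraries with WT, edgeR called 0 of the 112 genes.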

How the data were processed

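Poly(A) libraries from a TruSeq RNA v2 kit, which does not mark strand, were single-read sequenced per the labels. The deposited files hold whole-number read counts per gene identifier, which the authors made with TopHat2 2.0.9, Bowtie2 2.1.0 and HTSeq 0.5.4 on NCBIM37 (mm9), per the submitters' processing notes; the strand setting is not given in the sources used here. The 5 lines that name no gene held 24.2% to 24.8% of each file's total and were left out. Symbols and exon lengths came from GENCODE on GRCm38, matching 32919 of 37991 identifiers. CPM values are gene reads scaled to a common total after TMM adjustment, and no GRCm38 coordinate was applied to the deposited counts.

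All 12 libraries entered 1 edgeR 4.0.16 quasi-likelihood fit (R 4.3.3, TMM factors 0.986 to 1.01, filterByExpr, robust), with Benjamini-Hochberg adjustment over 16163 genes and a threshold of 0.05. Alternatives were other scalings and filters, a replicate block, 6-library fits, DESeq2 1.42.0 and leaving out each library. Mean marker levels used log2 CPM with a prior count of 2. On simulated data for DKO against WT (15990 genes in that step), 60.6% of 1.5-fold, 71.6% of 2-fold and 90.9% of 4-fold changes were recovered, with 14 false calls. The simulated counts had 1 spread per gene in all genotypes, whereas Pck1 spanned 11.7-fold in Ing1-KO and 2.45-fold in DKO. The recovery may therefore not hold for genes with such unequal spread. No replicate pair agreed within counting noise. Same-numbered libraries of different genotypes had correlated deviations from -0.19 to 0.25, over 0.1 in 2 of 18 pairs, so numbers were not taken to pair samples. Depth limits precision for Slc2a4 and Pck1 most, with under 100 reads per DKO library.

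The 8 genes and all lists were chosen with earlier results of these data known. Named were the 8 genes, the targets Ing1 and Gadd45a, up to 3 called genes per list with the smallest adjusted p in DKO against WT and up to 2 in other comparisons, and the 3 genes nearest in pattern to Slc2a4 and Pck1 with a mean of at least 5 CPM; Irs1, Irs3, Pck2, Akt1, Hk1 and Hk3 were named after their values had been seen. One called pathway gene is not reported here. Hepatocyte and erythroid markers were under 1 CPM in every library group. Of 5 endothelial markers tested, 1, Pecam1, was called higher in DKO against WT, at a mean of 0.932 against 0.399 CPM. The list did not move as a whole: 3 log2 values were above 0 and 2 below, with a median of 0.059. Cdh5 and Tek averaged 0.356 and 0.36 of WT in DKO, and neither was called.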

Additional observations from a re-analysis of the deposited data

How the results depend on the processing

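Of 946 alternative values for the 8 genes in 6 comparisons, 864 kept direction and side of the threshold, 34 lost and 22 gained a call, and 26 changed sign, the last in 9 results whose log2 fold changes were at most 0.20 in size. Of the 48 results behind these values, only 4 in DKO against WT and 3 in DKO against Ing1-KO were called in the main fit. All 34 losses fall on those calls, and most of the values that kept their side belong to results not called. Among the other named pathway genes 0 of 28 results changed sign, and 2 of 28 were called in each of the 12 fits that leave out 1 library. The cause was not tested.

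Against the Gadd45a-KO-labelled libraries, the number of the 8 genes called in DKO was 3 with only the 6 libraries compared and 2 with DESeq2. In DKO against Ing1-KO it was 1 with no filter, 0 with only the 6 libraries compared and 5 with DESeq2. Leaving out 1 library gave 0 to 1 calls of the 8 in Ing1-KO against WT, 0 to 5 in DKO against WT, 0 to 2 in DKO against Gadd45a-KO and 0 to 4 in DKO against Ing1-KO. With the replicate number as a block, 5 of the 8 were called in DKO against WT, Slc2a4 being added (log2 -2.23, adjusted p = 0.0488), and 2 in DKO against Ing1-KO, Pcx being lost (log2 -1.88, adjusted p = 0.0507); the labels do not say what a number shares.

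For the 112 other pathway genes these settings were chosen after seeing the data. They gave, in Ing1-KO against WT 3 increases with no filter and 3 with only the 6 libraries compared, and 1 decrease with only those 6. In DKO against WT the decreases were 31 with only the 6 libraries compared and 25 with DESeq2. In DKO against Ing1-KO the increases were 3 with upper-quartile factors, 1 with only the 6 libraries compared and 8 with DESeq2, and the decreases 4 and 19 with the last pair of settings. In DKO against Gadd45a-KO, only the 6 libraries compared gave 1 increase and 4 decreases, DESeq2 6 and 2, and a mean of at least 5 CPM 1 decrease. Leaving out 1 library gave 1 to 8 increases and 0 to 15 decreases in Ing1-KO against WT, 1 to 10 and 1 to 26 in DKO against WT, 0 to 10 and 0 to 23 in DKO against Ing1-KO, and 0 to 4 and 0 to 3 in DKO against Gadd45a-KO.

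Signs changed for Hk2 in DKO against Gadd45a-KO (log2 -0.0162 with upper-quartile factors, -2.47e-05 with no filter and -0.0059 with a mean of at least 5 CPM, and -0.0754 to 0.0612 leaving out 1 library) and for Akt2 in Ing1-KO against WT (0.0121, 0.0042 and 0.006 with the same settings, 0.0022 with only the 6 libraries compared, and -0.0677 to 0.0626 leaving out 1 library). Leaving out 1 library also changed the sign of Slc2a4 in Ing1-KO against WT (-1.2059 to 0.2413), Slc2a1 in Gadd45a-KO against WT (-0.1161 to 0.0105) and in DKO against WT (-0.0236 to 0.1705), Pfkfb3 in DKO against Ing1-KO (-0.2507 to 0.0307) and in the interaction (-0.0135 to 0.2681), and Irs2 in DKO against Gadd45a-KO (-0.0242 to 0.1652) and against Ing1-KO (-0.0458 to 0.1627). Slc2a4 did not pass the filter of a mean of at least 5 CPM, so that setting gave it no value, and the interaction was not run in fits of 6 libraries.

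Over all genes, DESeq2 called 645 higher and 611 lower in Ing1-KO against WT (edgeR 388 and 311), 714 and 539 in DKO against Gadd45a-KO (edgeR 107 and 96), 1533 and 1391 in DKO against Ing1-KO and 75 and 98 in the interaction. Only the 6 libraries compared gave 1487 and 1685 in DKO against WT (960 and 1146 with all 12), 217 and 171 in Ing1-KO against WT, 81 and 343 in DKO against Gadd45a-KO and 845 and 382 in DKO against Ing1-KO. No filter gave 543 and 538 in DKO against Ing1-KO, the replicate block 52 and 43 in DKO against Gadd45a-KO, and upper-quartile factors 103 and 143 there.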
